A study of Arabidopsis thaliana with 12 samples.

Results

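Seedlings of a chitin receptor mutant were set against wild type Col-0 seedlings, both given water for 30 minutes, so that the comparison shows how the genotypes differ with no elicitor added. The comparison rests on the 3 arrays titled as chitin receptor mutant with water and the 3 titled as wild type with water, which are 6 of the 12 arrays of the series. The other 6 arrays hold the same genotypes after 30 minutes of chitooctaose, a soluble chitin fragment. They serve below as other samples, in which each genotype difference was measured with the elicitor added. They also enter the estimate of spread behind the standard errors and calls. The mutant is in the Col-0 background with a mutation in the chitin receptor, the allele is not named in the labels, and wild type is Col-0. All groups share whole seedlings of 14 days, raised in liquid MS medium under constant light at 23 °C, and the arrays of each group are titled as biological replicates. The labels do not say whether mutant and wild type cultures were raised side by side, so genotype cannot be told apart from any difference in culture between the genotypes.

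Chitin is perceived in Arabidopsis by receptor kinases with extracellular LysM domains, among which CERK1 (AT3G21630) is required for the response. What a seedling in liquid culture expresses depends among other things on its sugar and oxygen supply and on how much of it is root. Anthocyanin synthesis and starch synthesis are classic responses to plentiful sugar, while breakdown of branched-chain amino acids and of starch is turned on when sugar is short. The labels do not name the mutated gene, and CERK1 is taken for it below from knowledge of the study. No probe set is named here for CERK1, so the mutation was not checked at its own transcript.

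All 22746 non-control probe sets entered 1 limma fit on log2(intensity + 16), with Benjamini-Hochberg adjustment over all of them, and a probe set was called at an adjusted p under 0.05. Differences are log2 values, mutant minus wild type, and the error after ± is the standard error from limma with 3 arrays per group unless marked SD. Genes given as higher or lower below were called by this test. The gene lists counted below were chosen with earlier results of these data known, so their counts are not an independent test. The 6 arrays had median intensities of 186.0 to 198.7, and arrays of the same group correlated at r from 0.991 to 0.993. On the first principal component, which held 47.3% of the variance, the 3 mutant arrays lay between 19.5 and 24.1 and the 3 wild type arrays between -23.6 and -19.7. In all, 10.3% of probe sets were called, with 917 higher (4.03%) and 1434 lower (6.3%) in the mutant, and after centring each array on its median 1700 were higher and 1560 lower. A single gene was named for 468 of the higher and 733 of the lower probe sets. Most differences were small, since 285 of the increases and 544 of the decreases reached 1.5-fold, 90 and 87 reached 2-fold, and 22 and 1 reached 4-fold. Calls were rarer among dim probe sets, at 1.49% of the dimmest 25% against 17.0% of the brightest 25%.

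The largest named difference was in ICL, isocitrate lyase of the glyoxylate cycle, the pathway that turns acetyl-CoA from fatty acids into precursors of sugar. Its intensity was 1114, 1097 and 1115 in the mutant arrays, against 81.0, 68.2 and 73.9 in the wild type arrays. The log2 difference was 3.64 ± 0.09 (limma adjusted p = 4.4e-14), and the mutant mean was 14.9 times that of wild type. In the chitooctaose arrays the difference was 3.90 ± 0.09, and the difference between the treatments was not called (adjusted p = 0.23). Of the glyoxylate cycle and beta-oxidation list 3 of 24 genes were measured. ICL was the 1 called higher and SDP1 the 1 called lower, beside 3.49% and 5.45% of named genes. AIM1, a multifunctional enzyme of beta-oxidation, averaged 2121 ± 110 in the mutant and 1932 ± 10.7 in wild type (SD, n = 3 each) and was not called at 0.13 ± 0.07. SDP1, the lipase that opens seed oil breakdown, was lower by -0.38 ± 0.11, a call that did not survive 4 of the 6 omissions of a single array.

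ICL lies 9 protein-coding genes from CERK1 in the gene order of assembly TAIR10.1. Of the 40 protein-coding genes within 20 places of CERK1, 21 were measured with a named probe set, and 6 of these were called higher and 1 lower in water, beside 3.49% and 5.45% of the 13350 named genes measured. AT3G21620, the gene next to CERK1, read 78.0, 83.5 and 95.9 in the mutant arrays, against 8.2, 20.03 and 18.5 in the wild type arrays, a difference of 1.71 ± 0.19. UGT71B1, a UDP-glucosyltransferase gene 12 places away, was higher by 0.53 ± 0.10, AT3G21690 by 0.65 ± 0.15, and AT3G21670, a member of the nitrate and peptide transporter family, by 0.30 ± 0.09. ICL, AT3G21620, UGT71B1 and AT3G21670 were the 4 neighbours called higher in the chitooctaose arrays too, at 3.90, 1.70, 0.50 and 0.32. Omitting single arrays removed the water call of AT3G21670 in 5 of 6 cases. In all 6 of the 21 were called higher and 2 lower in chitooctaose, beside 6.88% and 8.6% of named genes, and AT3G21770, the 1 lower in water (-0.36), was called higher there (0.24). Whether the nearness of ICL to the mutated gene bears on its level was not tested.

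**Figure D1:**
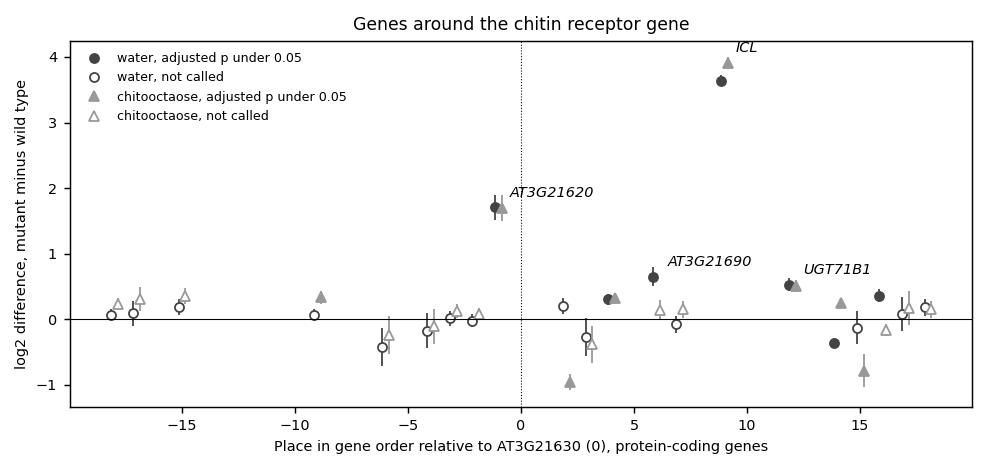
Log2 difference of mutant minus wild type (y axis) for the 21 measured genes within 20 places of the chitin receptor gene (x axis, place in gene order, receptor at 0), with circles for water, triangles for chitooctaose, filled where the adjusted p is under 0.05, and bars for the standard error. ICL, at place 9, and AT3G21620, at place -1, stand far above the other neighbours in both treatments.

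Of the 7 measured genes of the flavonoid pathway, DFR and 2 flavonoid glycosyltransferase genes were called higher in the mutant. DFR, dihydroflavonol 4-reductase, takes dihydroflavonols toward anthocyanins, at the branch where flavonols are the other product. It read 477, 396 and 460 in the mutant arrays, against 41.2, 40.1 and 33.8 in the wild type arrays. The difference of 3.08 ± 0.20 (limma adjusted p = 1.6e-08) was the second largest among named genes, and it was smaller in chitooctaose, at 1.83, with a called difference between treatments (adjusted p = 0.0054). The flavonoid glycosyltransferase genes UGT78D2 and UGT78D1 were higher by 0.44 ± 0.09 and 0.43 ± 0.10. These 3 were the called members among 7 measured of the 34 genes of the anthocyanin and flavonoid list, beside 3.49% of named genes called higher. The list's median difference was 0.36, beside 0.00 over all named genes. UGT78D2 can also act in anthocyanin synthesis, after DFR. Other measured genes of later anthocyanin steps, at 0.31, 0.36 and 0.35, were not called (limma adjusted p = 0.44, 0.37 and 0.30). Anthocyanidin reductase, BAN, which leads to tannins of the seed coat, averaged 34.0 ± 15.03 in the mutant and 45.7 ± 19.9 in wild type (SD, n = 3 each) and was not called.

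APL3, a regulatory subunit of ADP-glucose pyrophosphorylase that commits sugar to starch and is induced by sugar in leaves, read 503, 484 and 543 in the mutant arrays, against 91.9, 103 and 108 in the wild type arrays. That is a difference of 2.17 ± 0.16, with no overlap between the genotypes. SBE2.2, a starch branching enzyme gene, was higher by 0.61 ± 0.12, PWD, a dikinase that opens starch granules to breakdown, by 0.39 ± 0.08, and ATSPS4F, a sucrose-phosphate synthase gene, by 0.38 ± 0.09. Genes of starch making and starch breakdown were thus both among the 4 called higher of 8 measured (62 in the list). Over all named genes 3.49% were called higher and 5.45% lower. The vacuolar invertase gene AT1G62660 was the 1 of the list called lower, at 983 ± 108 in the mutant and 1631 ± 68.6 in wild type (SD, n = 3 each). The call of ATSPS4F was lost without mutant water replicate 3. QQS, an orphan gene whose loss is known to raise leaf starch, was lower at 502, 485 and 518 in the mutant arrays, against 1213, 1316 and 1087 in the wild type arrays (-1.23 ± 0.10). In the chitooctaose arrays APL3 was again called higher (1.69), SBE2.2 (0.14) and PWD (-0.14) were not called, and ATSPS4F was called lower (-0.40).

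Most sugar transporter genes were not called. Of 22 measured (44 in the list) 2 were called higher and 1 lower, beside 3.49% of named genes higher and 5.45% lower over the array, and the median difference was 0.05. Quantile normalization and median centring each gave 5 higher, and leaving out 1 array gave 1 higher without mutant water replicate 1 or 2 or wild type water replicate 1 or 2. SAG29, the plasma membrane sugar exporter SWEET15 known from senescence and osmotic stress, had the largest difference of the 3 called, at 139, 150 and 181 in the mutant arrays, against 32.4, 23.5 and 20.5 in the wild type arrays (2.06 ± 0.15). SWEET16, a vacuolar sugar carrier gene, was lower by -0.61 ± 0.12. AT3G19940 was higher by 0.70 ± 0.19, with dim means of 40.9 ± 3.52 in the mutant and 19.1 ± 4.19 in wild type (SD, n = 3 each), a call removed by 4 of 6 omissions of a single array.

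Most measured genes of the carbon starvation and dark-induced list were lower in the mutant. Of 7 measured (27 in the list) 5 were called lower and none higher, beside 5.45% and 3.49% of named genes, with a median of -0.46. IVD and MCCA both code for enzymes of leucine breakdown, which supplies respiration when sugar runs short. IVD read 678, 722 and 777 in the mutant arrays, against 1363, 1428 and 1257 in the wild type arrays (-0.88 ± 0.08), and MCCA differed by -0.77 ± 0.07. ATL8, a RING ubiquitin ligase gene, was lower by -1.07 ± 0.12, AT3G15450 by -0.46 ± 0.07 and AKINBETA1, a subunit of the energy-sensing kinase SnRK1, by -0.44 ± 0.08. In the chitooctaose arrays IVD did not differ detectably (0.01, adjusted p = 0.97), MCCA was lower by -0.27, and ATL8 was higher by 0.47.

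**Figure D2:**
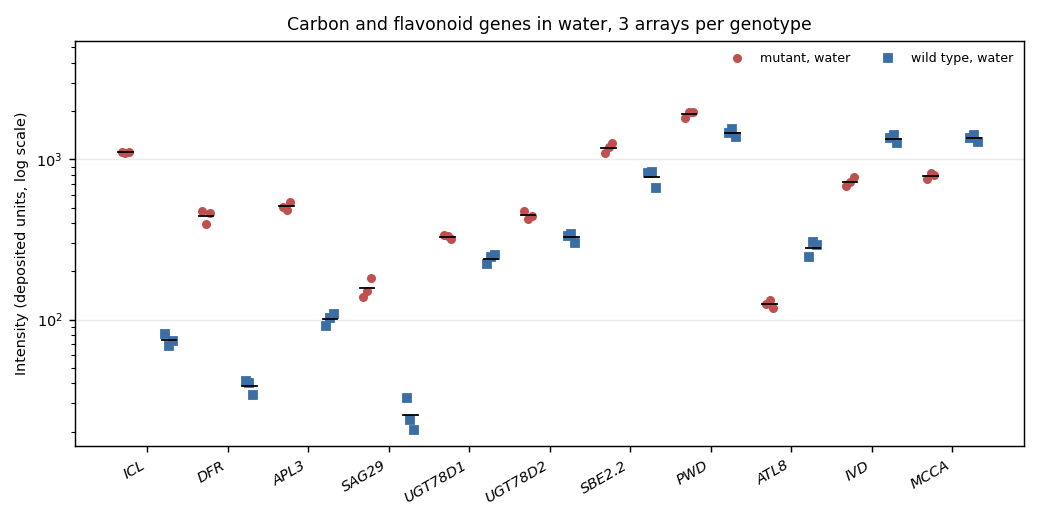
Deposited intensity (y axis, log scale) of 11 carbon and flavonoid genes in each water array, with mutant arrays as red circles, wild type arrays as blue squares and black bars at the mean of 3. The genotypes are far apart for ICL, DFR, APL3 and SAG29, closer for the glycosyltransferase and starch genes, and in the opposite order for ATL8, IVD and MCCA.

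Most measured genes of the root hair wall were lower in the mutant. Root hairs elongate by tip growth, which needs extensins, expansins, peroxidases and xyloglucan-modifying enzymes made in those cells. Of 17 measured genes of this list (43 in all) 14 were called lower and none higher, beside 5.45% and 3.49% of named genes, and 16 had negative differences, with a median of -0.67. XTH26, a xyloglucan endotransglucosylase gene of root hairs, read 120, 127 and 121 in the mutant arrays, against 227, 260 and 252 in the wild type arrays (-0.92 ± 0.12). The expansin gene EXPA18 read 364, 459 and 416 in the mutant arrays, against 666, 674 and 586 in the wild type arrays. Both sets of arrays were separate in these genes, as they were for 14 of the 17, while 16.5% of all probe sets had 3 mutant arrays below 3 wild type arrays. Further called members were AT1G34510 (-1.06 ± 0.14), AT4G08410 (-1.05 ± 0.16), AT1G26250 (-0.89 ± 0.12), AT3G49960 (-0.89 ± 0.08) and AT4G26010 (-0.66 ± 0.07). The extensin genes among them are near copies that can share probes, and AT4G08410 is read by a probe set marked as cross-hybridizing. The summed intensity of the 17 ran from 6517 to 7480 in the mutant arrays and from 10796 to 11934 in the wild type arrays.

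The list of root ER body and jacalin lectin genes split by gene. ER bodies are organelles of root and seedling cells filled with the beta-glucosidase PYK10, which forms complexes with jacalin-related lectins when tissue is damaged. The neighbouring lectin genes AT1G52050, AT1G52060 and AT1G52070 were lower by -1.13 ± 0.12, -1.42 ± 0.08 and -1.51 ± 0.13. AT1G52070 read 556, 597 and 671 in the mutant arrays, against 1799, 1693 and 1791 in the wild type arrays. PYK10 itself averaged 9795 ± 455 in the mutant and 9846 ± 251 in wild type (SD, n = 3 each), a difference of -0.01 ± 0.07 whose sign turned under quantile normalization and median centring. JAL34 (-0.34 ± 0.07) and NAI2 (-0.21 ± 0.06), an ER body component, were called lower, and 5 of 6 single-array omissions removed the call of NAI2. AT1G52100, another lectin gene, was higher by 0.44 ± 0.08. Of 9 measured (23 in the list) 5 were thus called lower and 1 higher, beside 5.45% and 3.49% of named genes. AT1G52000, a gene outside the list that lies 3 places from AT1G52050, was higher by 1.19 ± 0.20, and by 1.08 in chitooctaose.

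In the shoot list of photosynthesis and Calvin cycle genes 2 of 11 measured (63 in the list) were called higher and none lower, beside 3.49% and 5.45% of named genes, with a median of 0.02. The higher count was 4 under median centring, 0 without mutant water replicate 2, and 1 without any other single array except wild type water replicate 2. They were SBPASE, a Calvin cycle enzyme gene (0.26 ± 0.07), and LHCB4.3, an antenna protein gene (0.44 ± 0.11), and 4 and 2 of the 6 single-array omissions removed these calls. The summed intensity of the 11 ran from 102321 to 107146 in the mutant arrays and from 97111 to 103851 in the wild type arrays, so the genotypes overlapped in it. In whole seedlings a smaller share of root or root hair cells and less RNA per cell cannot be told apart, and their part in these differences was not tested. None of the 11 endodermis and root patterning genes was measured with a named probe set.

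Growth-related wall genes outside the root hair list were also lower where they were called. In the list of expansins, XTHs and cellulose synthesis 7 of 21 measured (61 in the list) were called lower and none higher, beside 5.45% and 3.49% of named genes, with a median of -0.22. XTH20, XTH19 and XTH18, 3 xyloglucan endotransglucosylase genes, were lower by -0.86 ± 0.10, -0.72 ± 0.08 and -0.69 ± 0.08, and XTH18 read 964, 1054 and 972 in the mutant arrays, against 1621, 1722 and 1497 in the wild type arrays. EXPA8 was lower by -0.47 ± 0.09, EXLA3, an expansin-like gene, by -0.68 ± 0.15 and EXLA2 by -0.38 ± 0.10, the last a call removed by 4 of 6 omissions of a single array. Among the 40 largest decreases, sks15, a relative of the SKU5 protein of directional root growth, stood at 123 ± 14.2 in the mutant and 287 ± 22.5 in wild type (SD, n = 3 each), a difference of -1.12 ± 0.11. AT3G19430 (-1.41 ± 0.08) and AT1G49570 (-1.32 ± 0.10) were also among them.

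**Figure D3:**
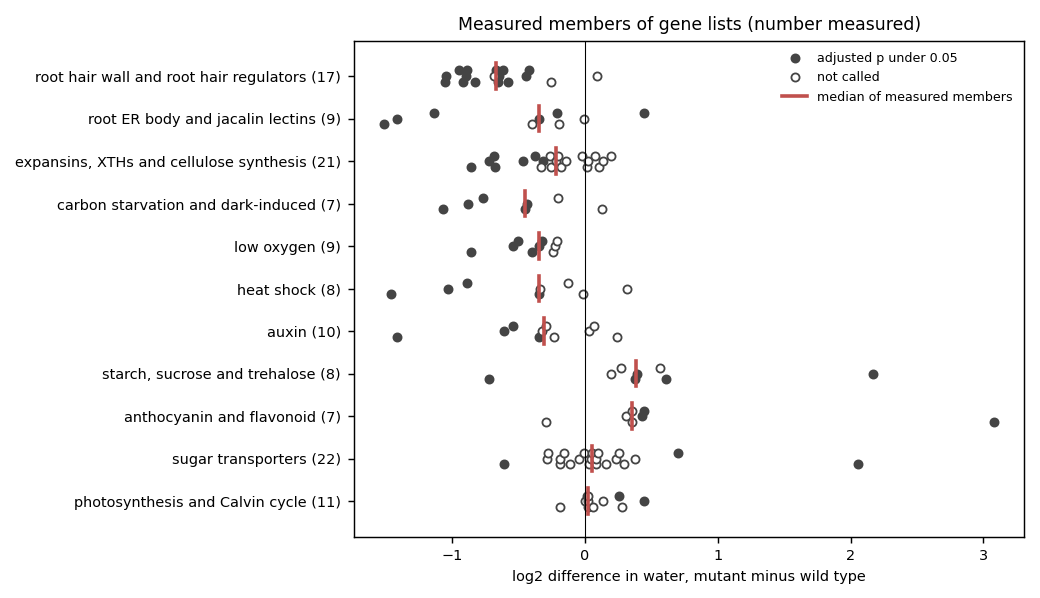
Log2 difference in water, mutant minus wild type (x axis), of each measured member of 11 gene lists (rows, number measured in brackets), filled where the adjusted p is under 0.05, with a red bar at the list's median. The members of the root hair list lie almost wholly to the left of 0, with a median of -0.67, while photosynthesis genes and sugar transporters centre near 0 and DFR, APL3 and SAG29 stand alone at the right of their lists.

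**Figure D4:**
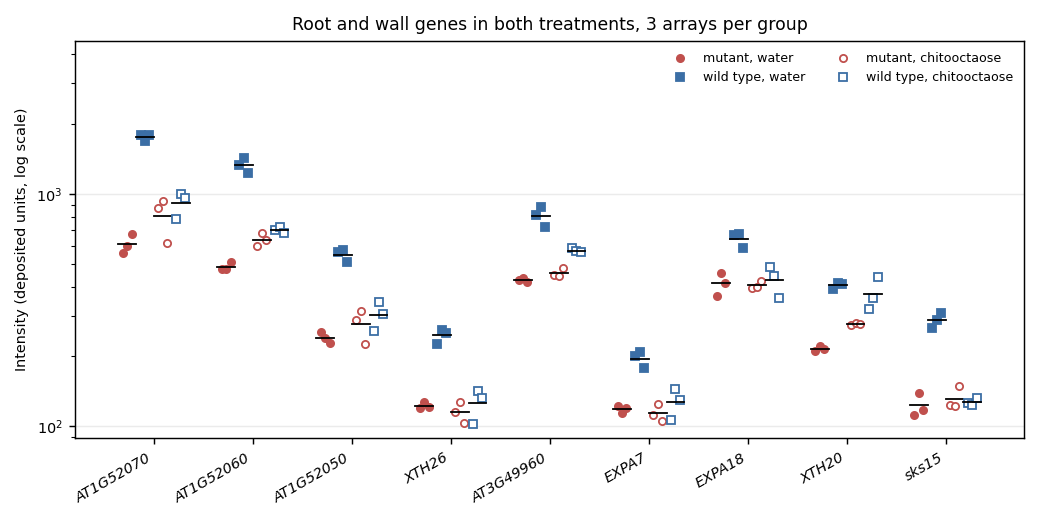
Deposited intensity (y axis, log scale) of 9 root and wall genes in each array, with mutant as red circles and wild type as blue squares, filled for water and open for chitooctaose, and black bars at the mean of 3. The genotypes are apart in water and closer together or overlapping in chitooctaose, with means for AT1G52070 of 608 in the mutant and 1761 in wild type in water, and of 806 in the mutant and 915 in wild type in chitooctaose.

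Stress and hormone genes were mostly lower where they differed. In the low oxygen list, genes induced when submerged tissue lacks oxygen, all 9 measured (21 in the list) had negative differences and 6 were called lower, beside 5.45% of named genes, with a median of -0.35. AT3G10020 read 1009, 996 and 995 in the mutant arrays, against 1820, 1829 and 1838 in the wild type arrays (-0.86 ± 0.07), and AT4G27450 was lower by -0.55 ± 0.08. The count of low oxygen calls was 3 without mutant water replicate 1 and 3 without wild type water replicate 2. Of 8 measured heat shock genes (26 in the list) 4 were lower, beside the same 5.45%, led by the small heat shock protein genes AT1G54050, at 129, 127 and 158 in the mutant arrays, against 409, 410 and 400 in the wild type arrays (-1.46 ± 0.13), and AT1G53540 (-1.03 ± 0.18). AT5G48570, a co-chaperone gene, was lower by -0.89 ± 0.11. Cold and drought genes went both ways, with 1 called higher and 2 lower of 5 measured (36 in the list), beside 3.49% and 5.45% of named genes. COR15A, a chloroplast cryoprotectant, was higher by 0.91 ± 0.12, and the dehydrin genes LTI30 (-0.45 ± 0.08) and COR47 (-0.37 ± 0.09) were lower. The call of COR47 was removed by 2 of 6 single-array omissions.

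Of 10 measured auxin genes (41 in the list) 4 were lower and none higher, beside 5.45% and 3.49% of named genes, with a median of -0.31. WES1, also called GH3.5, which joins auxin and salicylic acid to amino acids, read 541, 501 and 479 in the mutant arrays, against 1415, 1472 and 1255 in the wild type arrays (-1.42 ± 0.12). It was lower in chitooctaose too, by -1.09. WAG2, a kinase gene of auxin transport, was lower by -0.61 ± 0.10 and GH3.17 by -0.35 ± 0.09, while in chitooctaose they were higher by 1.17 and 0.39. The auxin count was 2 without any 1 of the 3 mutant water arrays, wild type water replicate 1 or wild type water replicate 2, and the call of GH3.17 was removed by 5 of the 6 omissions. The cytokinin response regulator gene ARR15 was lower by -0.66 ± 0.14. It was 1 of 2 measured cytokinin response genes (8 in the list), beside 5.45% of named genes lower. The other, at 0.28, was not called. Outside the lists for hormones, GAT1_2.1, a glutamine amidotransferase gene, was lower at 338, 304 and 310 in the mutant arrays, against 820, 906 and 868 in the wild type arrays (-1.40 ± 0.14). FHL, needed for the entry of phytochrome A into the nucleus, was lower by -1.27 ± 0.08, CYP718, a cytochrome P450 gene, by -1.32 ± 0.16 and ROXY2, a glutaredoxin gene, by -1.12 ± 0.15. CYP718 was the 1 called lower of 24 measured cytochrome P450 genes, a share close to the 5.45% of all named genes.

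Of the lists for defence hormones, calls were 2 genes higher and 1 lower among 4 measured of the salicylic acid list (31 in all), and 0 higher and 2 lower among 6 measured of the jasmonate and ethylene list (48 in all), beside 3.49% and 5.45% of named genes. AT5G03350, a lectin gene known to respond to salicylic acid, read 286, 347 and 354 in the mutant arrays, against 82.6, 96.3 and 84.6 in the wild type arrays (1.73 ± 0.12). SAG101 (0.58 ± 0.16), the other called higher, was called in none of the 6 omissions of a single array. UGT76B1, which glycosylates salicylic acid and a related defence signal, was lower by -0.50 ± 0.10. The 2 lower in the jasmonate and ethylene list were the defensin genes PDF1.2 (-0.47 ± 0.11) and PDF1.2b (-0.71 ± 0.19), near copies whose probes may share signal, and single-array omissions removed these calls in 2 and 4 of 6 cases.

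Other genes named next were taken from the 40 largest increases and stand for no list. CHI, a putative chitinase gene, read 502, 494 and 536 in the mutant arrays, against 263, 196 and 188 in the wild type arrays (1.199 ± 0.12). RING1, a ubiquitin ligase gene of programmed cell death, averaged 576 ± 24.2 in the mutant and 237 ± 19.1 in wild type (SD, n = 3 each), and BETA-VPE, a vacuolar processing protease gene, was higher by 1.202 ± 0.12. CML41, a calmodulin-like calcium sensor, read 211, 196 and 227 in the mutant arrays, against 32.8, 27.7 and 30.6 in the wild type arrays (2.29 ± 0.16). SAL2, a relative of the phosphatase SAL1, was higher by 1.28 ± 0.11 and BGLU25, a beta-glucosidase gene, by 1.15 ± 0.18.

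Many of the largest increases were in genes with no symbol in the tables used. AT1G80130 read 1498, 1405 and 1545 in the mutant arrays, against 162, 175 and 169 in the wild type arrays (3.02 ± 0.08). AT2G25510, among the brightest, read 9143, 9014 and 9312 in the mutant arrays, against 2636, 2706 and 2642 in the wild type arrays (1.78 ± 0.06). AT1G43910 differed by 2.29 ± 0.11, AT1G76960 by 1.99 ± 0.16 and AT4G17660 by 2.70 ± 0.25. AT4G17660 averaged 177 ± 18.0 in the mutant and 15.5 ± 14.0 in wild type (SD, n = 3 each), a level so dim that the added 16 shrinks the difference. The differences of AT1G76960, AT3G28510 and AT3G28580, with dim wild type means too, are shrunk likewise. Some of the increases lay close together in gene order. AT2G04050 (1.62 ± 0.13) and AT2G04070 (2.54 ± 0.15) are 5 places apart, AT3G28510 (1.30 ± 0.22) and AT3G28540 (1.43 ± 0.13) are 3 apart, and AT3G28580 (1.60 ± 0.15) follows 4 places on. Among UDP-glycosyltransferase genes 5 of 43 were higher and 5 lower, beside 3.49% of named genes higher and 5.45% lower, with UGT76E11 at 0.66 ± 0.13 and UGT71C1 at -0.70 ± 0.11. Larger than any of these were 4 probe sets with no gene named here, of which 266070_at read 2307, 2282 and 2223 in the mutant arrays, against 18.4, 34.2 and 36.5 in the wild type arrays (5.67 ± 0.12), and 266385_at differed by 5.22 ± 0.10. In chitooctaose they differed by 5.29 ± 0.12 and 5.21 ± 0.10. The largest decrease was likewise in a probe set with no gene named here, 262099_s_at, at 112, 87.1 and 103 in the mutant arrays, against 551, 542 and 529 in the wild type arrays (-2.26 ± 0.11).

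The means behind the water differences do not use the chitooctaose arrays, but the standard errors and calls in water do. These arrays gave each genotype difference in other samples with the elicitor added. That difference also holds any response to the elicitor that differs between the genotypes, so it does not repeat the water measurement. In the chitooctaose arrays 7.77% of probe sets were called higher and 9.5% lower in the mutant. Of the 90 probe sets at least 2-fold higher in water, 73 were called higher and 8 lower in chitooctaose, with a median difference of 1.26 there. Of the 87 at least 2-fold lower in water, 43 were called lower and 5 higher in chitooctaose, with a median of -0.34. For 73 of these 87 the wild type water mean was the highest of the 4 group means. Of the 90 increases, 76 had both mutant means above both wild type means. Over all calls in water, 331 of the 917 increases (36.1%) and 517 of the 1434 decreases (36.1%) were called the same way in chitooctaose, which is 18.7% of the increases and 23.9% of the decreases called in chitooctaose.

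The genotype differences themselves differed between treatments for 11.3% of probe sets. Among the 40 largest increases in named genes 19 had a called difference between treatments, and among the 40 largest decreases 33 did. These genes were chosen for their difference in water, which is part of the difference between treatments, so the counts are not independent of the choice. Increases such as those of ICL, APL3 (1.69 in chitooctaose), SAL2 (1.495), CHI (1.26) and AT5G03350 (1.92) had no called difference between treatments. AT1G78410, AT5G52760 and AT1G72920 were higher in water by 1.78 ± 0.18, 1.55 ± 0.10 and 1.37 ± 0.10, and lower in chitooctaose by -2.48, -2.41 and -2.59. AT3G60420 was higher by 1.66 ± 0.14 in water and lower by -0.48 in chitooctaose. Of the decreases, AT5G46295 differed by -1.64 ± 0.15 in water and by -6.27 in chitooctaose, and AT4G39675 by -1.29 ± 0.07 and -0.13. Of the 17 root hair genes, 4 were called lower in chitooctaose, beside 8.6% of named genes (6.88% were higher), and 8 had a called upward difference between treatments, beside 4.66% of probe sets upward and 6.62% downward, and their summed intensity in chitooctaose ran from 6450 to 7358 in the mutant arrays and from 8473 to 8979 in the wild type arrays. XTH18, XTH19 and EXLA3 were further apart in chitooctaose than in water, at -1.88, -1.30 and -1.55.

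**Figure D5:**
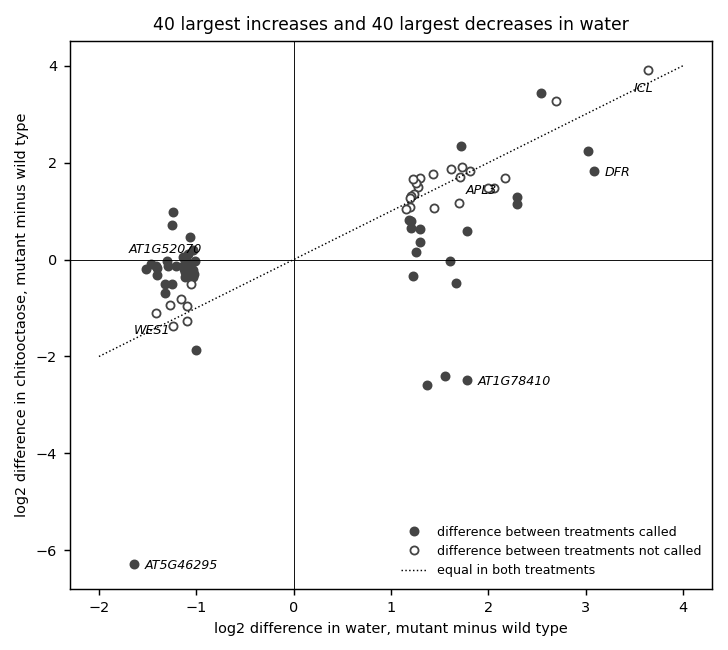
Log2 difference of mutant minus wild type in water (x axis) against the same in chitooctaose (y axis) for the 40 largest increases and the 40 largest decreases in water among named genes, filled where the difference between treatments was called, with a dotted line where both are equal. Increases such as ICL and APL3 lie near the line, while most of the decreases lie above it near 0 on the y axis, at a median of -0.19.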

How the data were processed

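RNA of 12 seedling samples was measured on one-colour Affymetrix arrays from 8 ug of total RNA. The deposited intensity values are linear, 1 per probe set, and the labels and header do not say how the authors summarised and scaled them. The number of arrays limits the precision. After 64 control probe sets were left out, log2(value + 16) was modelled in R 4.3.3 by limma 3.58.1 (1 mean for each of 4 groups, all 12 arrays, with a mean-variance trend; residual degrees of freedom 8, prior 8.33). Tests were two-sided, called at an adjusted p under 0.05. Tables were made in pandas 2.3.3 and figures in matplotlib 3.10.9, under Python 3.11.15. By the platform annotation 13513 probe sets carry a single gene name, together 13350 genes, while 503 carry several and 8730 carry none. Of the 13513, 13436 matched the TAIR10.1 gene table. The brightest probe set stood for a gene.

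The comparison, the lists and the rule for naming genes were chosen with earlier results of these data known. The 25 lists were assembled by gene ID, and 166 of their 767 distinct genes were measured; lists without a measured member (endodermis, phosphate starvation and senescence) were not analysed. Genes named are the 40 largest increases and 40 largest decreases among called genes whose genotypes do not overlap, up to 8 called members of each list or family (or 2 where none is called), and measured neighbours of CERK1. Exceptions chosen after seeing values are BAN, AIM1, PYK10 and the probe sets with no gene. The fit was repeated with quantile normalization, with arrays centred on their medians, with 1 or 64 added in place of 16, without the dimmest 40%, blocked on replicate number, without the trend, on only the 6 arrays of a comparison, with a 2-fold minimum, and with each array left out in turn. The fit was tested on simulated data. Promoter sequences and motifs were not analysed here, and no array dates or batches are given.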

Additional observations from a re-analysis of the deposited data

Results flagged for a closer look

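The genotype difference itself differed between treatments, by the interaction contrast of limma at an adjusted p under 0.05, for 2565 probe sets, which is 11.3% of those tested. It did so for 57 of 96 named genes, which were chosen for their difference in water, and the water arrays enter both. AT1G52000 and AT3G21770, also named above, are not counted among the 96. Values are log2 differences of mutant minus wild type in chitooctaose minus the same in water.

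Among genes higher in the mutant in water, the difference was lower in chitooctaose for DFR by -1.25, PWD by -0.54, ATSPS4F by -0.78, UGT78D2 by -0.50, AT1G52100 by -0.57, CML41 by -1.16, RING1 by -1.56, SAG101 by -1.17 and AT1G43910 by -1.0. It was lower also for AT1G80130 by -0.78, AT2G25510 by -1.19, AT1G78410 by -4.26, AT5G52760 by -3.96, AT1G72920 by -3.96, AT3G60420 by -2.14, AT3G28580 by -1.63, COR15A by -0.93 and LHCB4.3 by -0.61. SBPASE was another, by -0.54. AT2G04070, already higher in water, was higher by a further 0.90.

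Among genes lower in the mutant in water, the difference was moved upward in chitooctaose for AT1G62660 by 0.55, ATL8 by 1.54, IVD by 0.89, MCCA by 0.49, AT1G52070 by 1.32, AT1G52060 by 1.28, AT1G52050 by 1.01, AT4G08410 by 0.76 and XTH26 by 0.81. It was moved upward also for EXPA7 by 0.52, EXPA18 by 0.55, AT3G49960 by 0.57, AT4G26010 by 0.39, XTH20 by 0.46, EXPA8 by 0.72, sks15 by 1.16, AT3G19430 by 1.08 and AT1G49570 by 0.63. Others were UGT76B1 by 1.45, PDF1.2 by 1.41, PDF1.2b by 0.90, WAG2 by 1.77, GH3.17 by 0.74, GAT1_2.1 by 1.23, CYP718 by 0.82, ROXY2 by 0.75 and AT4G39675 by 1.16. The remaining ones were AT1G54050 by 1.36, AT1G53540 by 1.22, AT5G48570 by 0.56, AT3G10020 by 0.53, LTI30 by 0.41 and UGT71C1 by 0.65. Of the genes lower in water, XTH19 by -0.58, XTH18 by -1.20, EXLA3 by -0.87 and AT5G46295 by -4.63 were lower still in chitooctaose. The cause of these differences was not tested.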

How the results depend on the processing

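The number of higher probe sets in water was 1567 under quantile normalization, 1700 under median centring, 1479 with only the 6 arrays fitted and 90 with a 2-fold minimum, and of lower ones 87 with that minimum. Leaving out 1 array gave 579 to 726 higher (593 without mutant water replicate 2, 579 without mutant water replicate 3) and 911 to 1304 lower (911 without wild type water replicate 2). In chitooctaose 3584, 2768, 1084 and 157 were higher under the same 4 settings and 671 lower with the 2-fold minimum, with 1181 to 1781 higher and 1686 to 2823 lower without 1 array. The difference between treatments had 2040 positive calls under quantile normalization and 166 with the 2-fold minimum, 644 negative with that minimum, and without 1 array 689 (without wild type water replicate 2) to 1136 positive and 1249 to 2079 negative. Sugar transporter increases numbered 5 under quantile normalization and under median centring, 1 without the dimmest 40% and 4 with only the 6 arrays, where decreases were 2. Without the trend, salicylic acid increases were 1, low oxygen decreases 3, cold and drought decreases 1 and photosynthesis increases 1, and the last were 4 under median centring. Without 1 array the higher calls were 2 to 3 for anthocyanin, 3 to 5 for starch, 1 to 2 for sugar transporters, 1 for salicylic acid and 0 to 2 for photosynthesis. The lower calls were 5 for carbon starvation, 4 to 5 for ER body, 12 to 13 for root hair, 5 to 7 for expansin, 2 to 3 for auxin, 3 to 4 for heat shock, 3 to 5 for low oxygen and 1 to 2 for cold and drought genes. PYK10 turned to 0.0099 under quantile normalization, 0.023 under median centring, 0.023 without mutant water replicate 1 and 0.0068 without wild type water replicate 2, in a range of -0.043 to 0.023 over the 6 omissions. The cause of these shifts was not tested.

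The deviations of same-numbered mutant and wild type arrays from their group means correlated over probe sets at 0.135, 0.00357 and 0.0116 in water. The numbers are thus not shown to pair the samples. With the replicate number as a block 967 probe sets were higher and 1490 lower, and no count moved by over 1.5 times. NAI2 was the 1 gene of the 96 whose call was lost (limma adjusted p = 0.0512). Pseudocounts of 1 and 64 changed no call of the 96 named genes. With 3 arrays per group and no detection calls, low intensities have no measured background.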
